A study of Mus musculus with 5 samples.

Results

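The Hoxb cluster is the group of Hoxb homeobox genes on mouse chromosome 11, and it was examined here for Polycomb chromatin, for enhancer-type chromatin and for binding of Hoxa9 and C/EBPα. Its members were chosen by position. They were all called peaks and regions that touched chromosome 11 from 96020000 to 96240000 (mm9) by at least 1 bp, an interval that runs from Hoxb13 at the low end to Hoxb1 at the high end. It held 40 of the 166982 peaks and regions in all 4 lists: 1 of 6578 Hoxa9 peaks, 0 of 26446 C/EBPα peaks, 7 of 100189 H3K4me1 regions and 32 of 33769 H3K27me3 regions. Flanks of 200 kb on each side were read in the same way, and they held 51 members below and 42 above. The interval from Hoxb13 to Hoxb1 is called the Hoxb window below.

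The cells were haematopoietic progenitors from the bone marrow of C57B6 mice, depleted of lineage-positive cells, transduced with the retroviral constructs MIGR1-HA-Hoxa9 and MIGR1-Flag-Meis1 and kept in IL3. All libraries came from these transformed cells, so none shows untransformed progenitors, and the retroviruses drive both transgenes outside their own loci. Chromatin immunoprecipitation with sequencing was done with anti-HA, which reports the tagged Hoxa9 and not the cells' own protein, with anti-C/EBPα, with anti-H3K4me1 and with anti-H3K27me3. With 1 library behind each list there is no replicate error on any value, and no test was made.

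Hox genes encode homeodomain transcription factors that give cells their position along the head to tail axis, and in a cluster they lie in the order of the body regions they pattern. H3K27me3 is the trimethyl mark that Polycomb complexes place on silent developmental genes, and in cells where a Hox gene is off it commonly spreads over the gene and its neighbours. H3K4me1 marks enhancers, active or poised. In blood, Hox genes of the A and B clusters are best known from primitive cells and are shut down as cells mature. Hoxb4 is known for expanding haematopoietic stem cells when it is overexpressed, and enforced Hoxb8 keeps mouse myeloid progenitors from maturing in culture.

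The mouse RefSeq table gave all 10 genes of the cluster, in another build (GRCm38.p6) than the lists, so it was used for names, order and sequence alone. From the low to the high end it lists Hoxb13, a gene of the tail end of the body and the prostate, then Hoxb9, Hoxb8, Hoxb7, Hoxb6 and Hoxb5, genes of the neck and trunk, then Hoxb3 and Hoxb4, genes of the hindbrain and neck whose annotated spans overlap, and last Hoxb2 and Hoxb1, genes of the hindbrain. Ttll6 is the nearest protein-coding gene below Hoxb13 and Skap1 the nearest above Hoxb1. Between Hoxb13 and Hoxb9 the table has no protein-coding gene, but it has 4 long noncoding RNA genes, a pseudogene and the microRNA gene Mir196a-1. Mir10a is listed between the starts of Hoxb3 and Hoxb4. Regions below were not assigned to single genes, because no annotation of the lists' own build was used here.

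Sequences of genes in this cluster are shown first. No chromatin call was placed on them, because they come from another build than the lists. The mature microRNAs of Mir196a-1 and Mir10a are given because both genes sit among the Hoxb genes, and miR-196a is known to direct cleavage of the Hoxb8 messenger RNA in the mouse. Capitals mark the seed, bases 2 to 8 (RefSeq, GRCm38.p6, plus strand, 5′ to 3′).
mmu-miR-196a-5p: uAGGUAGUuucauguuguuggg
mmu-miR-10a-5p: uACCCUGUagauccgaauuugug
The seeds differ, so the 2 microRNAs belong to different seed families.

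Promoters of 3 of the 10 genes were in the RefSeq promoter table, those of Hoxb8, Hoxb4 and Hoxb1. The members with no entry are Hoxb2, Hoxb3, Hoxb5, Hoxb6, Hoxb7, Hoxb9 and Hoxb13. Each sequence runs from 250 bases before the gene's start to 50 after it, and capitals mark CpG, the dinucleotide whose dense clusters, CpG islands, are known as landing places of Polycomb in mammals. All are on the plus strand of GRCm38.p6: Hoxb8 at chr11:96281655-96281954, Hoxb4 at chr11:96318017-96318316 and Hoxb1 at chr11:96365508-96365807.
Hoxb8: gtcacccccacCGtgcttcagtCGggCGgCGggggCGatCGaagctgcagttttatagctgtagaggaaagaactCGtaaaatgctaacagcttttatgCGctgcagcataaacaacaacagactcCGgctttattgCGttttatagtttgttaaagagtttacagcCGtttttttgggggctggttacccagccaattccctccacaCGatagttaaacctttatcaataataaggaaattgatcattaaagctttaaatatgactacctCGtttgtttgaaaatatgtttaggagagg
Hoxb4: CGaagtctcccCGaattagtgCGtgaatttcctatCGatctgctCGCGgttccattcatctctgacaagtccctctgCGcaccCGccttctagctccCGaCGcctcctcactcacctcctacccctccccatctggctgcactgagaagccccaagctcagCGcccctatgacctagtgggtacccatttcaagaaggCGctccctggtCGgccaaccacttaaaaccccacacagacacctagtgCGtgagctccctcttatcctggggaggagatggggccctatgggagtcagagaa
Hoxb1: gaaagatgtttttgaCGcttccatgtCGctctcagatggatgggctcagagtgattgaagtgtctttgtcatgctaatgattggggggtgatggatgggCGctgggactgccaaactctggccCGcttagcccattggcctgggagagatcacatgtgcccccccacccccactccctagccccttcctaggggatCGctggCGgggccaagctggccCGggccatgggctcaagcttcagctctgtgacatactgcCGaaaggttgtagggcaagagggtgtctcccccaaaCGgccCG
The Hoxb8 promoter held 13 CpG, the Hoxb4 promoter 14 and the Hoxb1 promoter 10, against a median of 7 over the 32851 promoters of the table. More CpG than in the Hoxb4 promoter, the highest of the 3, stood in 34.6% of all promoters, so none of the 3 was extreme. Relative to its C and G content, the observed to expected CpG ratio was 0.970 for Hoxb8, 0.593 for Hoxb4 and 0.380 for Hoxb1, against a median of 0.384. The Hoxb8 promoter was therefore the most CpG-rich for its base composition, with a G+C content of 42.3%, and the Hoxb1 promoter lay at the median. The letters TGATTNAT, a form of the site that Hox proteins bind with their cofactors, and TTGCNNAA, a form of the C/EBP site, were searched on both strands. Neither was found in any of the 3 windows, while 3.22% of all promoters held the first and 10.8% the other.

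H3K27me3 covered most of the Hoxb window. Called regions took up 184.3 kb of its 220.001 kb, or 83.8%. The low flank was covered at 39.0% and the high flank at 30.2%, chromosome 11 at 4.68% and the whole span of the lists at 2.51%. The flanks thus also lay well above the average of the chromosome, and the window well above both flanks. Of all tags inside H3K27me3 regions of the list, 0.441% fell in regions of the Hoxb window, which is 0.00855% of the span. Covered length and density both entered that share, and both are given below.

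The window was set beside other stretches of the same length. Tiling the span end to end gave 11690 tiles that did not touch it, and the most covered of them reached 71.9%. A closer likeness came from windows centred on every H3K27me3 region of 10 kb or more. Among the 685 such windows away from the Hoxb cluster, the median was 19.9% and the highest 82.0%, on chromosome 6 from 52082652 to 52302652. No other window passed 83.8%, but the Hoxb window was drawn around its cluster and the others were not, so its place at the top is a description and the distance to the next is small.

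**Figure D1:**
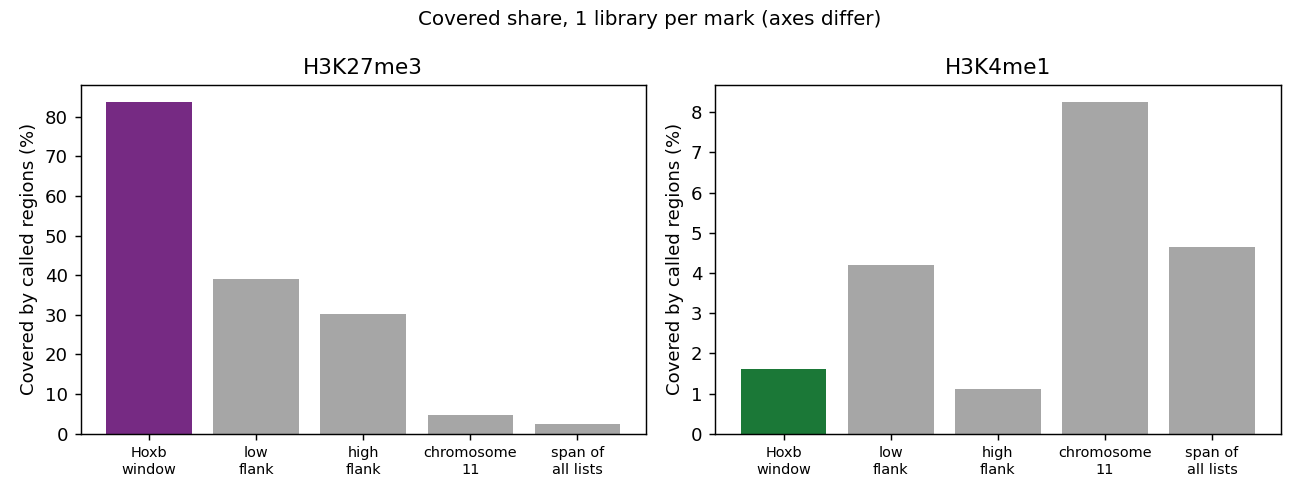
Share of sequence (%) covered by called H3K27me3 regions (left) and H3K4me1 regions (right) in the Hoxb window, its flanks, chromosome 11 and the span of all lists, with 1 library per mark and no error bars. H3K27me3 stood at 83.8% in the window against 39.0% and 30.2% in the flanks, and H3K4me1 at 1.61% against 4.21% and 1.11%.

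The 32 H3K27me3 regions were very unequal. Of them 3 were 10 kb or wider, or 9.38%, against 2.04% of the whole list. Fold enrichment, the caller's linear ratio over its background, was 10 or more in 5 of them, or 15.6%, which is close to the 15.2% of the whole list. The median region of the window was 976 bp wide with a fold enrichment of 5.76, against 903 bp and 5.76 in the list. Most members were therefore ordinary small calls, and the covered share came from a few. The 2 widest regions alone made up 123.7 kb, or 67.1% of the covered length.

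**Figure D2:**
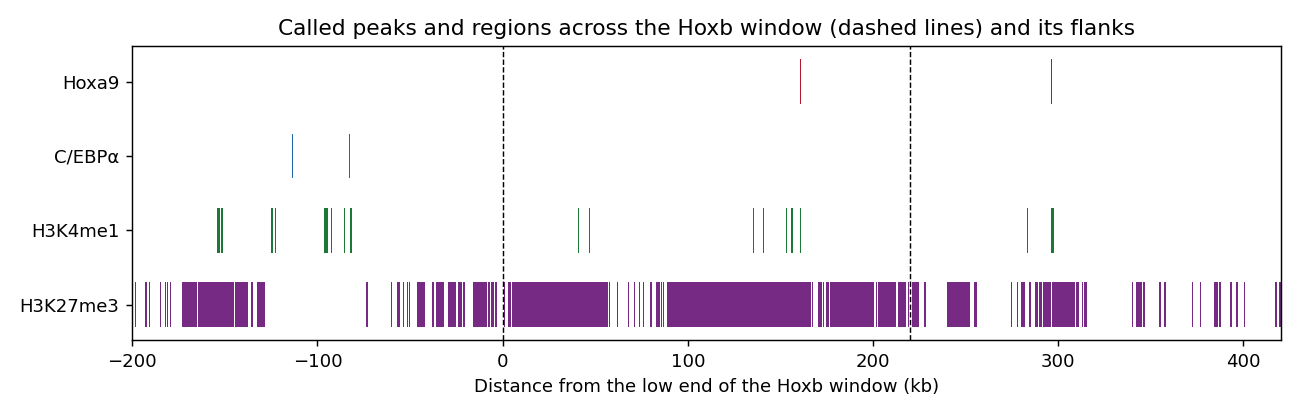
Called Hoxa9 and C/EBPα peaks and H3K4me1 and H3K27me3 regions, drawn to scale along 620 kb as distance (kb) from the low end of the Hoxb window, whose ends are the dashed lines (calls under 0.5 kb are drawn at that width). The window shows 2 long H3K27me3 blocks of 46.6 and 77.2 kb with smaller calls between and above them, 7 H3K4me1 regions inside those blocks, 1 Hoxa9 peak and 0 C/EBPα peaks.

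The lower of these blocks lay at the Hoxb13 end, on chromosome 11 from 96024851 to 96071438. It was 46.6 kb wide and ranked 5 of 33769 by width. It held 9909 tags, or 0.213 per bp, with a fold enrichment of 30.81 and its summit 31358 bp from its low end. Among the 688 regions of 10 kb or more, 187 had more tags per bp and 289 a higher fold enrichment. It was thus long, with a fold enrichment near the median of 29.46 for broad regions. Its density lay above their median of 0.184 tags per bp. Below it the lowest 4.851 kb of the window held 2 small regions with fold enrichments of 5.42 and 5.76.

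The upper block, from 96109310 to 96186459, was 77.2 kb wide and ranked 3 by width. Its 17172 tags made 0.223 per bp, and its fold enrichment was 33.92. More tags per bp were found in 143 of the 688 broad regions and a higher fold enrichment in 153. Its summit stood 24116 bp from its low end, in the lower part of the block. The blocks were alike in density, on either side of the upper quartile of broad regions, 0.216 tags per bp. The caller's score, 10 times the −log10 of its p-value, was 642.53 for the upper block and 3100 for the lower one, although the upper block had more tags, more tags per bp and a higher fold enrichment. Of the 688 broad regions only 3 had a lower score than the upper block. By score it thus stood near the bottom of them, but not by density or fold enrichment.

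The space between the blocks was not empty. It ran for 37.871 kb from 96071439 to 96109309 and held 13 regions that covered 14.6 kb, or 38.6% of it, close to the 39.0% of the low flank. Fold enrichments there ran from 4.06 to 8.13 with a median of 5.08. Of the 13 regions 0 reached 10, against 3 of 38 in the low flank, so the like shares were unlike in strength. Of these regions 11 were narrower than 1 kb. The widest, from 96072619 to 96076785, spanned 4167 bp with 261 tags and lay 1180 bp above the lower block. The next, from 96102933 to 96105180, spanned 2248 bp with 176 tags. The tags per covered bp came to 0.0607 in the space, against 0.213 and 0.223 in the blocks, so the calls in it were thin as well as short. Calls stood nearer to each other at both ends of the space than in its middle, where the longest uncalled piece of the window, 5270 bp from 96082432 to 96087701, was found.

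Broad regions as close together as these were a minority in the list, but not single cases. Of 668 pairs of neighbouring regions of 10 kb or more, 108 lay nearer to each other than the 37.871 kb of the Hoxb pair, against a median of 953 kb. Among 153 pairs with up to 100 kb between them, the median share of the space that was called was 31.9%, and 67 pairs had a larger share than the Hoxb pair. By called share, the space between the Hoxb blocks was thus near the middle of such spaces. By length it was among the longer ones, as 108 of the 153 were shorter. The blocks themselves stood out by width: no other neighbouring pair had both regions as wide as 46.6 kb.

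Above the upper block, the Hoxb1 end of the window was covered again, in shorter pieces. These 53.541 kb from 96186460 to 96240000 held 15 regions covering 43.7 kb, or 81.7%. The largest, from 96208632 to 96219209, spanned 10578 bp with 1778 tags and a fold enrichment of 26.07. On either side of it lay regions of 8348 bp, from 96222487 to 96230834 and enriched 24.38-fold, and of 7322 bp, from 96197850 to 96205171 and enriched 17.27-fold. The other 12 had fold enrichments of 4.06 to 8.46. Tags per covered bp were 0.111 over this end, between the 0.0607 of the space and the values of the blocks. From the widest down, the 3 larger regions had 0.168, 0.134 and 0.110 tags per bp, so the wider of them were the denser. The widest, the only one of 10 kb or more, was under the median of 0.184 for regions of that width.

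**Figure D3:**
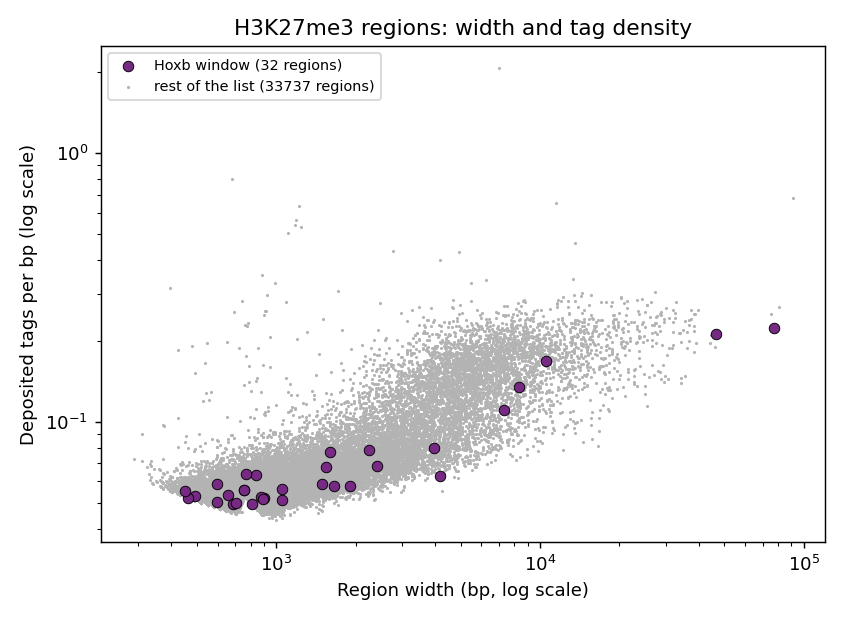
Width (bp) and deposited tags per bp of the 32 H3K27me3 regions of the Hoxb window (large points) and of the rest of the list (small points), both axes logarithmic. The 2 blocks lie far to the right at 0.213 and 0.223 tags per bp, and most other members lie among the small regions of the list near 0.0576, the median of the window.

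Uncalled pieces inside the window were short. There were 33, with a median of 578 bp, and 1 was longer than 5 kb. The low flank had a longest uncalled piece of 54388 bp and 4 over 5 kb. The high flank had 24325 bp and 7 over 5 kb. In 10 kb bins, 11 of 22 bins of the window were fully covered and 20 were covered by at least 50%, and the lowest bin, in the space between the blocks, stood at 13.9%. Of 20 bins in the low flank 1 was full and 4 were at 0, and of 20 in the high flank 0 were full and 3 were at 0. Marked chromatin did not stop at the ends of the window: joined across gaps of up to 5 kb, the regions made 2 stretches, from 95959923 to 96082431 and from 96087702 to 96248399, of 122.5 and 160.7 kb. Both ran past the ends of the window, the lower one further. By width they ranked 9 and 3 of the 15088 stretches so joined.

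**Figure D4:**
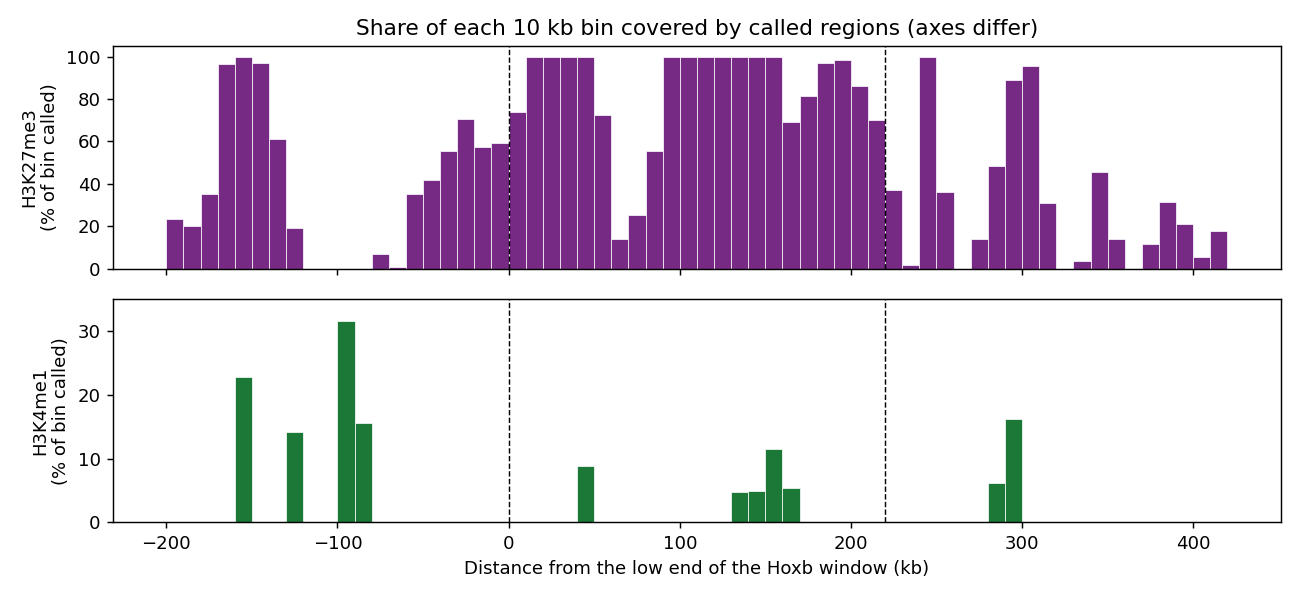
Share of each 10 kb bin (%) covered by H3K27me3 regions (upper panel) and by H3K4me1 regions (lower panel), along the distance (kb) from the low end of the Hoxb window, whose ends are dashed. In the window 11 of 22 bins are fully covered by H3K27me3, with a dip to 13.9% between the blocks, and H3K4me1 appears in 5 bins at 4.68% to 11.6%.

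The H3K4me1 regions called in the window lay inside the 2 broad H3K27me3 blocks. It covered 1.61% of the window, against 4.21% of the low flank, 1.11% of the high flank, 8.27% of chromosome 11 and 4.64% of the span. H3K4me1 is unevenly spread, and among 11692 tiles of the window's length the median was 0.546%, with 6879 tiles below the window's value, 4813 above it and 43.0% of all tiles at 0. The window was thus below the average of the span and above its median tile. All 7 regions lay wholly inside the 2 blocks, whereas 6.85% of the whole H3K4me1 list touched an H3K27me3 region at all, 4.98% lay wholly inside H3K27me3 and 1.42% lay wholly inside one of 10 kb or more. Of 13 regions in the flanks, 2 were inside H3K27me3, 1 crossed an edge and 10 were outside. The blocks made up 56.2% of the window, and H3K27me3 of any width 83.8%, so many places in it lie inside them in any case. Whether both marks were on the same chromosomes or in different cells of the culture cannot be told apart in these libraries.

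The 2 H3K4me1 regions of the lower block stood in its upper part, from 96060600 to 96061022 and from 96066785 to 96067245. They held 14 and 15 tags with fold enrichments of 3.14 and 4.41, and 14 is the fewest tags of any region in that list. The 5 regions of the upper block also stood in its upper part. Those from 96155393 to 96155860, from 96160780 to 96161268 and from 96172906 to 96173316 held 15, 15 and 14 tags with fold enrichments of 4.13, 3.86 and 5.56. The last 2 were the strongest of the window. One of them, from 96175903 to 96176646, held 29 tags at a fold enrichment of 7.78 and scored 238.23. The highest along the block, from 96180361 to 96180896, held 24 tags at a fold enrichment of 6.67 and scored 180. The 5 summits spanned 24.9 kb, with 3.154 to 12.092 kb between neighbours, and the highest lay 5917 bp inside the edge of the block. In contrast, the lower 46.1 kb of the upper block held no H3K4me1 call.

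As a group the H3K4me1 regions of the window were narrow and weak. Their median width was 468 bp, their median tag number 15, their median fold enrichment 4.41 and their median score 101.42. In the 13 regions of the flanks the same medians were 711 bp, 30, 5.56 and 193.09. Over the whole list they were 768 bp, 32, 4.84 and 189.68. The 1418 listed regions wholly inside H3K27me3 regions of 10 kb or more had medians of 781 bp and 32 tags. Their median fold enrichment was 5.2 and their median score 213.67. Why the regions of the window had lower values was not tested. Weak sites under the caller's limit would not be in the list, so spaces without a call may still hold some H3K4me1.

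Both blocks touched H3K4me1, as did 86.2% of the broad regions in the list, and 2 of the 32 H3K27me3 regions of the window did so, or 6.25%, against 14.6% of the list. The third region over 10 kb, at the Hoxb1 end, had none. Per 10 kb the upper block held 0.648 H3K4me1 regions and the lower block 0.429, against 1.31 over all 688 broad regions and a median of 1.12. Among the 10 widest regions of the list the lower block had the lowest value, with 0.443 and 0.453 next to it on chromosomes 14 and 9, and the highest was 1.60 on chromosome 2. The region on chromosome 6 that is close to the upper block in width, 80.4 kb, held 12 H3K4me1 regions, and the one on chromosome 2, 75.2 kb wide, also held 12, against 5 in the upper block. These counts rest on single calls and were not tested.

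Around the window, H3K4me1 was called nowhere for long stretches. Between the regions in the lower block and those in the upper block, 88.1 kb held none, the space between the blocks included. From the lowest region of the window down to the next in the low flank there were 122.1 kb, and from the highest up to the next in the high flank there were also 122.1 kb. Spaces of that length or more were 2.66% of all spaces between neighbouring H3K4me1 regions, whose median was 2.071 kb. Long stretches without a call were still common along the sequence. Of all tiles of the window's length, 43.0% held no H3K4me1.

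The only factor peak in the window was a Hoxa9 peak in the upper block, on chromosome 11 from 96180396 to 96181037. It held 31 tags with a fold enrichment of 6.0 and a score of 115.55, and its deposited false discovery rate was 0%. It was an average peak of its list, where the medians were 32 tags, a fold enrichment of 6.06 and a score of 103.435, and it ranked 3003 of 6578 by score. Its summit, at 96180779, was inside the H3K4me1 region that lies highest in the block and 237 bp from that region's summit. The peak shared 501 of its 642 bp with that region and all of them with H3K27me3, and its summit lay 5680 bp inside the edge of the block. The nearest C/EBPα summit was 243.5 kb away.

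Such a place was rare in the Hoxa9 list as a whole. Within the window, however, H3K27me3 covered 83.8% of the sequence and the long blocks alone 56.2%. Most places in the window thus lie inside H3K27me3 in any case, and lying there does not set this peak apart. H3K27me3 touched 1.49% of all Hoxa9 peaks, 98 of 6578, and H3K4me1 touched 82.4%. Both marks touched 67 peaks, or 1.02%. Only 10 Hoxa9 peaks of the list lay wholly inside H3K27me3 regions of 10 kb or more, the Hoxb peak among them, and 9 of those 10 touched H3K4me1. The Hoxb peak therefore shared its H3K4me1 overlap with nearly all others of that small set, but also with 82.4% of the whole list. In density, 1 peak in 220.001 kb is 0.455 per 100 kb, against 0.355 on chromosome 11 and 0.256 over the span, which a single peak cannot set apart.

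C/EBPα, the leucine zipper factor that directs granulocyte and monocyte development, had no called peak in the window. The nearest summits were at 95937267 below and 96515396 above, which left 578.1 kb without a call. Spaces longer than this were 3.47% of all 26426 spaces between neighbouring C/EBPα summits, with a median of 24.7 kb. A tile of the window's length with 0 C/EBPα peaks was common, at 44.2% of all tiles. The low flank held 2 weak peaks, from 95906477 to 95906862 and from 95937008 to 95937547, with 15 and 21 tags and fold enrichments of 5.09 and 6.42. The high flank held 0.

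The other Hoxa9 peak of the neighbourhood lay in the high flank, from 96316087 to 96316856, with 36 tags, a fold enrichment of 5.58 and a score of 126.34. In strength it was close to the peak in the window, and the nearest C/EBPα summit was 199.0 kb away. Its setting was different. It lay wholly inside an H3K4me1 region from 96315905 to 96317519 that held 113 tags with a fold enrichment of 18.98, the rank of 18 of 100189 in that list and the highest of the 6864 H3K4me1 regions that touch H3K27me3. H3K27me3 was interrupted there: the region below ended at 96316024 and the next began at 96316843, an uncalled piece of 818 bp that held the Hoxa9 summit, and only 14 bp of the peak overlapped the upper of them. The peak in the window, in contrast, had no break in H3K27me3 for 5680 bp on its nearer side. Both Hoxa9 peaks thus touched H3K4me1 and had no C/EBPα peak, and they differed in whether the H3K27me3 call was broken at the summit.

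**Figure D5:**
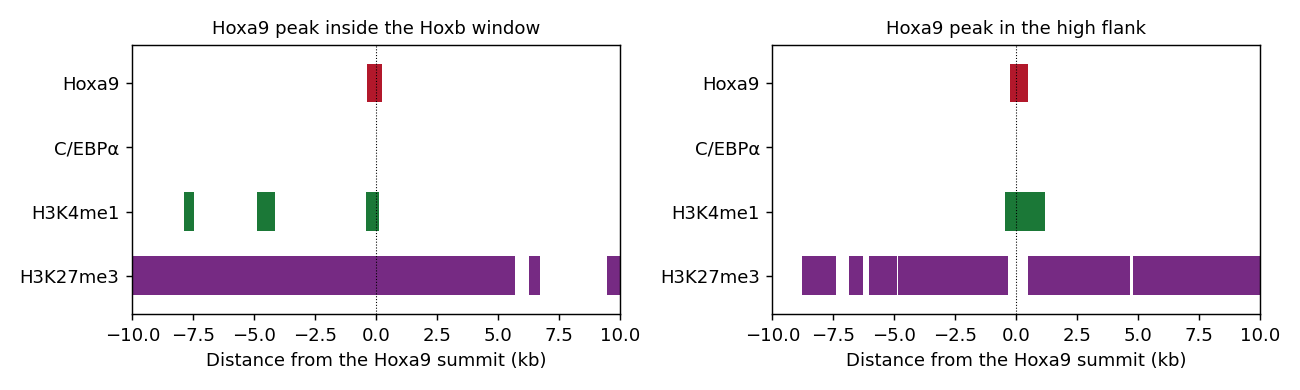
Called regions within 10 kb of the summits of the Hoxa9 peak in the Hoxb window (left) and of the Hoxa9 peak in the high flank (right), with distance from the Hoxa9 summit (kb) on the horizontal axis. In the window the peak and a short H3K4me1 region lie inside unbroken H3K27me3. In the high flank nearly all of the peak lies over an uncalled piece of 818 bp. The H3K4me1 region there reaches into H3K27me3 on both sides of that piece.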

How the data were processed

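ChIP-seq peak lists of Hoxa9, C/EBPα, H3K4me1 and H3K27me3 were used, 1 library each. The input sample was left out. The tools named by the submitters' processing notes are BWA 0.6.2, MACS 1.4 and CASAVA 1.8.2, with build mm9. Sources used here do not give the caller's settings or control. Per the file headers, the authors deposited for each peak a whole-number tag count, which is not normalized, a score of 10 times the −log10 of the p-value, a linear fold enrichment ratio and a false discovery rate in percent. These values are the caller's and were used only within a list. The fewest tags in a call were 17, 15, 14 and 20 in the order of the lists above, and no library total is stated, so weaker sites are missing at an unknown depth. A score of exactly 3100 was shared by 2558 H3K27me3 regions.

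The window and flanks came from a rule on mm9 positions. Covered length was counted after merging overlaps, a summit was placed from the start of its region, and overlap meant at least 1 bp. Python 3.11.15, pandas 2.3.3 and NumPy 2.4.6 were used, with Matplotlib 3.10.9 for plots. On 50 simulated lists, 0 overlaps differed from a base by base count. All 10 Hoxb genes, every H3K27me3 region and factor peak of the window and every H3K4me1 region touching H3K27me3 were to be described, the smaller H3K27me3 regions by range. The region in the high flank with the highest fold enrichment was named after its values were seen, as were windows centred on broad regions. The members and lists were chosen with earlier results of these data known. Promoter and microRNA sequences were RefSeq's (GRCm38.p6). Summits, peaks and promoters could not be set on each other, as the builds differ.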

Additional observations from a re-analysis of the deposited data

How the results depend on the processing

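Of 29 alternatives to 7 results, 12 left the value as it was, 6 moved it by up to 1.5 times and 11 moved it by more or to 0. Coverage of the window by H3K27me3, 83.8%, was 68.2% with regions at a fold enrichment of 10 or more, 78.9% with the upper 50% by score, 85.0% with the window narrowed by 10 kb at each end and 80.8% with it widened as much. Coverage by H3K4me1, 1.61%, was 0%, 0.338%, 1.77% and 1.47% under the same settings. The 32 H3K27me3 regions became 15 when joined across gaps of up to 1 kb, 2 across gaps of up to 5 kb, 17 in the upper 50% by score and 5 at 10-fold enrichment or more. The 7 H3K4me1 regions, like the 7 that touched H3K27me3, became 0 at that fold enrichment and 1 in the upper 50% by score. The 1 Hoxa9 peak became 0 at that fold enrichment and stayed 1 in the upper 50% by score. These settings keep fewer calls or join them by construction. The H3K4me1 and Hoxa9 statements therefore rest on calls under 10-fold enrichment. Most calls of both lists were also under it, as their median fold enrichments were 4.84 for H3K4me1 and 6.06 for Hoxa9. No paired analysis was possible because each group has 1 library.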

Other observations

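The low flank held a further Polycomb block. Its widest H3K27me3 region, on chromosome 11 from 95858204 to 95875212, spanned 17009 bp with 3241 tags and a fold enrichment of 38.26, which is higher than the 33.92 and 30.81 of the blocks in the Hoxb window. Regions of 2697 and 6035 bp followed it on the lower side, and regions of 3351 and 3816 bp on the upper side. It held 2 H3K4me1 regions, with 60 and 38 tags and fold enrichments of 7.59 and 7.78. The other 9 H3K4me1 regions of the low flank lay where H3K27me3 was not called, and both of its C/EBPα peaks did as well, between 95891928 and 95946315. In the high flank the widest H3K27me3 region, from 96321124 to 96329299, spanned 8176 bp with a fold enrichment of 21.33.

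The score of the upper block is at odds with its other values, and the H3K27me3 list has a like case. Of the 688 regions of 10 kb or more, 2 combined a score under 1000 with a fold enrichment over 25: the upper block, with 642.53, and the region of 80.4 kb on chromosome 6, with 921.73 and a fold enrichment of 41.98. They rank 3 and 2 by width. What set their scores was not tested.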
